A study of Mus musculus with 441 samples.

Results

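The 34 genes described here carry a cell from G1 into S phase and copy its DNA. They were taken by name, and all 34 were found in each deposited table: bulk RNA (21001 genes), single mouse embryonic stem cells (22392), single neural precursor cells (18848) and ChIP-seq windows (23142). Cdc6 also stands in each of the 3 RNA tables under the spelling cdc6 with the same values, and was counted once. The RNA came from v6.5 mouse embryonic stem cells (mESC) in 3 states. These were serum+LIF, with 2 bulk libraries and 2 microfluidic plates of 90 and 93 cells, and 2i+LIF, with 1 bulk library and 1 plate of 94 cells. The remaining state was a Dgcr8 knockout kept in serum+LIF, with 2 bulk libraries and 1 plate of 84 cells. LIF was thus common to all mESC cultures. A plate of 54 neural precursor cells (NPC) had been derived in vitro from v6.5 cells and expanded with bFGF on laminin. ChIP-seq gave 1 library per mark and culture. Each genotype was a single line, and nothing in the labels states that replicates were separate cultures, so p-values measure the spread between these libraries, which may be technical.

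As background, origin recognition is followed in G1 by Cdc6 and Cdt1, which load the ring of Mcm2 to Mcm7 around DNA. Cyclin E with its kinase, and the kinase Cdc7, then start the fork, where the GINS complex and Mcm10 join the helicase, polymerase alpha and primase lay the first primers, and the sliding clamp Pcna holds the polymerases that follow. Many of these genes are targets of the E2F transcription factors, which the retinoblastoma protein holds back until cyclin-dependent kinases release them. Embryonic stem cells are known for a short G1 and for high cyclin E activity. 2i adds inhibitors of the kinases MEK and GSK3 to the medium, and Dgcr8 is a subunit of the complex that cuts primary microRNA transcripts.

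Promoters are shown first for 4 members, because they were the 2 of largest difference from serum in 2i bulk (Mcm5, E2f1) or in knockout bulk (Mcm5, Ccne1) or because the gene belongs to the pair that varied most closely together across cells (Cdc6). RefSeq promoters (GRCm38.p6, 250 bases before to 50 after the start) were matched for 29 of the 34 members, all except Mcm4, Gins1, Gins2, Ccne2 and Tipin. Each promoter was searched on both strands for the E2F words TTTCCCGC, TTTCGCGC, TTTGCCGC and TTTGGCGC. Capitals mark the matches, and the coordinates belong to that build alone, since the deposited ChIP windows use mm9. The 4 promoters are Mcm5 at chr8:75109259-75109558 (plus strand), Cdc6 at chr11:98907901-98908200 (plus strand), E2f1 at chr2:154569377-154569676 (minus strand) and Ccne1 at chr7:38107441-38107740 (minus strand).
Mcm5: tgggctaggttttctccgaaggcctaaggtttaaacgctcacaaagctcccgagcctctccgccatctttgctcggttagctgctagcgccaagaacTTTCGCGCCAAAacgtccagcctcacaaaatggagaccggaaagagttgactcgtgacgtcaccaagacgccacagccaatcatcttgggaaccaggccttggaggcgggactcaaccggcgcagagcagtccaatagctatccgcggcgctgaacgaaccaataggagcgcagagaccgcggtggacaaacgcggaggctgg
Cdc6: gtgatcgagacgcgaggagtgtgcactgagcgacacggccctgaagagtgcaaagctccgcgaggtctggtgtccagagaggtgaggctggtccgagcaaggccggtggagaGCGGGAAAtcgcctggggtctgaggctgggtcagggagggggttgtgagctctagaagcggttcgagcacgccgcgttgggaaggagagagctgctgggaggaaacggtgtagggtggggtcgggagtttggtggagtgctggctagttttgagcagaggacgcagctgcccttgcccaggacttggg
E2f1: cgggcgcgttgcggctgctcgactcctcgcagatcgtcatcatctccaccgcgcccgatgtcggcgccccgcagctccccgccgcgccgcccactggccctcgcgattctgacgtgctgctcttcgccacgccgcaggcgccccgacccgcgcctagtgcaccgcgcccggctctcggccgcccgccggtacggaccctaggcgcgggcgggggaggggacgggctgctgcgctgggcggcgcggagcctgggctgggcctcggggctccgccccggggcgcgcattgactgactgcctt
Ccne1: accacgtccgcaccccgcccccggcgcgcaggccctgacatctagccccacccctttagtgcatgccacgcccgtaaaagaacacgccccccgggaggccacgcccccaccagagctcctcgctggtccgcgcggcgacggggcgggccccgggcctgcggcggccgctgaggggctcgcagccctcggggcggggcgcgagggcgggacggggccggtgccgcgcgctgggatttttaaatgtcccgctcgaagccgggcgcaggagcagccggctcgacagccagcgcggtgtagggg

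Mcm5 held 2 overlapping matches, TTTCGCGC on its own strand from base -153 and TTTGGCGC on the opposite strand from base -149, both counted from the start site. Cdc6 held 1, TTTCCCGC on the opposite strand from base -138. No match was found in the listed windows of E2f1 and Ccne1, nor in those of Ung and Rrm2. The first part of the E2f1 window can be read as protein-coding sequence without a stop codon. That window may therefore lie inside the gene, and other start sites of E2f1 were not searched. Of the 29 members with a listed promoter, 11 had a match (37.9%: Mcm3, Mcm5, Mcm6, Mcm7, Cdc6, Cdt1, E2f2, Pola1, Rfc3, Lig1, Msh6). Counted by gene in the same way, 2.6% of all 27025 genes had a match, and 2.26% of the 32851 promoters of the table did. The word CCAAT was found for 17 of the 29 (58.6%), for 41.1% of all genes and in 37.4% of all promoters. TTTGAA, the word of the CHR element, was found for 4 of the 29 (13.8%), for 20.2% of all genes and in 17.9% of all promoters. The members' windows had a median GC content of 61.3%, beside 52.7% for all promoters. What this composition contributes to the shares was not tested.

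Depth is unknown for the RNA files, which hold TPM (transcripts scaled to a fixed total per library) on a natural log scale. A library's genes at 1 TPM or more numbered 8367 and 7562 in serum, 8991 under 2i, and 11057 and 10820 for the 2 knockout libraries. The median gene lay higher than in serum by 0.20 (2i) and 0.92 (knockout) on the log2 scale in bulk, and by 1.24 and 1.38 in cells. Differences below are therefore given relative to the median tested gene of each library, with the split of the uncentred values beside each main count. Dgcr8 itself read 10.6 and 10.3 TPM in bulk serum, 4.66 under 2i, and 4.03 and 2.20 in the knockout. Over plates its mean was 72.5 and 27 TPM in serum, 34 under 2i and 16 in the knockout, where 94.0% of cells still had it at 1 TPM or more, and the labels used here do not name the deleted part. The summed level of 8 mESC markers ran from 18141 to 42425 TPM in bulk and from 8324 to 23274 over mESC plates, while 8 fibroblast and feeder markers summed to at most 1.97 TPM in any mESC sample. In NPC the mESC markers summed to 663 TPM, 9 neural precursor markers to 1389 TPM and fibroblast markers to 174 TPM. Vim, which mesenchymal cells also express, gave 1121 TPM of the neural precursor sum. Nes and Pax6 were at 1 TPM or more in 90.7% of cells and Sox2 in 75.9%, but Hes5 in 44.4%, Sox1 in 29.6%, Msi1 in 7.41% and Olig2 in 1.85%, and Fabp7 had no value. Of the fibroblast markers, Col3a1 was in 90.7% of cells. What that fibroblast signal contributes to the members' NPC values was not tested.

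In 2i, the bulk library had less RNA for 4 of the 6 helicase subunits, for Mcm10 and for Ccne2, and more for E2f1, Gins1, Lig1, Chaf1b and Ung. Of 33 members tested, 8 rose (13.8% of all 10081 genes were called higher), 14 fell (18.7% of all genes were called lower) and 11 did not pass limma's test at an adjusted p of 0.05. E2f2 stayed under the filter of a mean of 1 TPM. The members' median difference was -0.46, that of all genes -0.05. Without centring the split was 8 higher and 10 lower, where 20.4% of all genes were called higher and 11.8% lower. The spread of the lone 2i library was taken to equal that of the other 4, and in bulk a lower share of cycling cells and less RNA per cell cannot be told apart.

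The MCM ring moved unevenly in 2i. Mcm5 read 676 and 609 TPM in serum and 152 under 2i, the lowest of its values in any bulk library (difference -2.32, SE 0.15, limma adjusted p = 9.18e-05). Mcm7 read 371 and 294 TPM in serum and 139 under 2i (-1.49, SE 0.15, adjusted p = 0.000595). Mcm4 stood at 105 TPM in both serum libraries and at 44.3 under 2i (-1.47, SE 0.17, adjusted p = 0.00101). In all 3 the 2i value lay below both serum values. Mcm3 went from 295 and 324 to 210 TPM (-0.80, SE 0.19, adjusted p = 0.0182). Mcm6, at 45.8 and 34.5 TPM in serum and 33.5 under 2i, and Mcm2, at 17.8 and 15.2 in serum and 23.8 under 2i, did not pass. Equal amounts of the 6 proteins form the ring, yet in serum their RNA spanned from the level of Mcm2 to that of Mcm5.

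**Figure D1:**
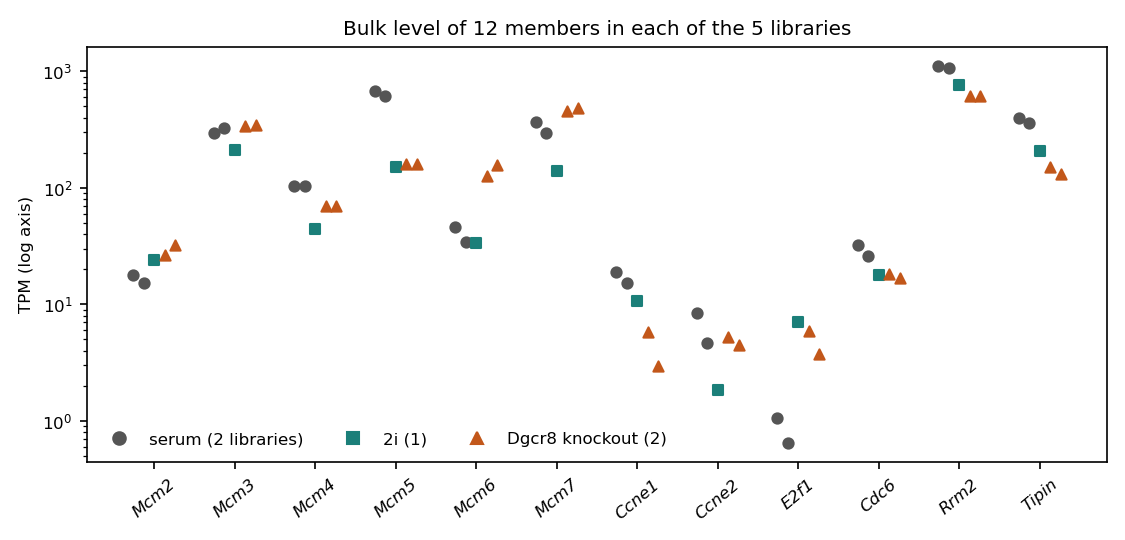
TPM (log axis) of 12 members in each of the 5 bulk libraries, with serum as circles, 2i as squares and Dgcr8 knockout as triangles. Mcm5 lies at 676 and 609 in serum and between 152 and 161 in the other 3 libraries, whereas E2f1 is at most 1.05 in serum and at least 3.74 elsewhere.

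Among the licensing and firing factors, Mcm10, which bridges helicase and primase, read 57.6 and 48 TPM in serum and 18.9 under 2i (-1.68, SE 0.17, adjusted p = 0.00051). The loader Cdc6 (-0.93, SE 0.17) and the kinase Cdc7 (-0.82, SE 0.20) fell as well, while the GINS subunits Gins1 (1.02, SE 0.21) and Gins2 (0.51, SE 0.15) rose. Cdt1, the partner of Cdc6, did not pass. The E2F and cyclin E genes split. E2f1, which activates many of the other members, read 1.05 and 0.639 TPM in serum and 7.03 under 2i (1.88, SE 0.29, adjusted p = 0.00286). Ccne2, the less abundant cyclin E, read 8.47 and 4.69 TPM in serum and 1.84 under 2i (-1.62, SE 0.28, adjusted p = 0.00467). Ccne1 had 18.9 and 15.3 TPM in serum and 10.7 under 2i and missed the threshold (adjusted p = 0.0639). E2f2 was at or under 0.284 TPM in all 3 of these libraries.

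At the fork, the single-strand binding subunit Rpa2 (-0.96, SE 0.20), the clamp loader Rfc3 (-0.64, SE 0.17) and the flap nuclease Fen1 (-0.86, SE 0.24) fell in 2i. The ligase Lig1, which seals Okazaki fragments, rose (1.16, SE 0.16). Pola1, Prim1, Pcna and Rfc4 did not pass. All 4 nucleotide supply genes were called, in both directions. Both subunits of ribonucleotide reductase fell (Rrm1 -1.43, SE 0.15, and Rrm2 -0.78, SE 0.17), and thymidylate synthase Tyms (0.63, SE 0.16) and thymidine kinase Tk1 (0.60, SE 0.16) rose. Of the chromatin assembly genes Chaf1b rose (1.0, SE 0.24), and of the repair and fork genes the uracil glycosylase Ung rose (1.05, SE 0.24) and the fork protector Tipin fell (-1.12, SE 0.16). Slbp, Chaf1a and Msh6 did not pass. Of the 22 calls, 15 held in each alternative that tested them (E2f1, Ung and Ccne2 among them were not tested at a mean of at least 5 TPM), and the 7 that did not were those of Rfc3, Fen1, Tk1, Cdc6, Gins2, Cdc7 and Tyms.

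In bulk libraries of the Dgcr8 knockout, 8 members fell on every scale tried: Mcm4, Mcm5, Mcm10, Cdc6, Ccne1, Rpa2, Rrm2 and Tipin. Chaf1b, a subunit of chromatin assembly factor 1, rose on every scale. Relative to the median gene, 2 of 33 members rose (21.8% of all genes were called higher), 21 fell (36.5% of all genes were called lower) and 10 did not pass. The members' median difference was -0.84, beside -0.20 for all genes. The centring decides much of this split. Uncentred, 13 members were higher and 8 lower, in libraries whose genes were called 6303 higher (62.5%) and 1183 lower (11.7%). Centred on the 2519 genes with a mean of at least 20 TPM, an alternative chosen after seeing the data, 9 were higher and 12 lower. On that scale 47.3% of all genes were called higher and 18.3% lower. Leaving out knockout library 2 took the rise of Mcm6 away, so that 1 rise remained.

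Mcm5 again led the falls, from 676 and 609 TPM in serum to 161 and 160 in the knockout (-3.11, SE 0.12, adjusted p = 5.56e-06). Mcm4 went from 105 TPM in both serum libraries to 69.5 and 69.4 (-1.70, SE 0.14, adjusted p = 6.97e-05). For both, knockout TPM lay below serum TPM with no overlap. The other subunits did not fall in TPM. Mcm3 read 295 and 324 TPM in serum and 343 and 347 in the knockout (-0.96 relative to the median gene, SE 0.16, 0.16 uncentred). Mcm7 read 371 and 294 TPM against 461 and 481 (-0.61, SE 0.12, 0.51 uncentred). Their calls as lower thus exist only relative to the median gene. Mcm6 was at 45.8 and 34.5 TPM in serum and at 126 and 157 in the knockout (0.68, SE 0.16, adjusted p = 0.00952), and Mcm2 was at 17.8 and 15.2 against 26.6 and 32.6 (-0.32, SE 0.17, not passing, 0.80 uncentred).

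Ccne1, the cyclin that drives entry into S phase, read 18.9 and 15.3 TPM in serum and 5.74 and 2.98 in the knockout (-2.92, SE 0.25, adjusted p = 7.61e-05). Its partner gene Ccne2 read 8.47 and 4.69 against 5.22 and 4.44 TPM (-1.46, SE 0.23, adjusted p = 0.00135), so that its TPM ranges overlapped. E2f1, at 1.05 and 0.639 against 5.90 and 3.74 TPM, did not pass (0.52, SE 0.23, adjusted p = 0.0929), but its uncentred difference did (1.64, adjusted p = 0.000213). Cdc6 went from 32.4 and 25.9 to 18.2 and 16.7 TPM (-1.82, SE 0.14, adjusted p = 5.18e-05). Tipin, which protects stalled forks, went from 398 and 363 to 152 and 133 TPM (-2.53, SE 0.13, adjusted p = 1.06e-05). Rrm2, the regulated subunit of ribonucleotide reductase and the most abundant member in bulk, went from 1115 and 1071 to 609 and 616 TPM (-1.95, SE 0.14, adjusted p = 3.44e-05). For these last 3, both knockout values lay below both serum values. Chaf1b rose from 20.8 and 26.3 to 94.3 and 94.1 TPM (0.84, SE 0.20, adjusted p = 0.00915).

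The remaining falls relative to the median gene were those of Mcm10, Pola1, Pcna, Rfc3, Rfc4, Rpa2, Rrm1, Tyms, Tk1, Slbp, Chaf1a and Ung, between -0.58 (Chaf1a) and -1.61 (Rpa2). All 4 nucleotide supply genes and 5 of the 8 polymerase, clamp and Okazaki genes were among the falls. Of the 6 licensing and firing factors only Cdc6 and Mcm10 fell, and Cdt1, Cdc7, Gins1 and Gins2 did not pass. Prim1, Fen1, Lig1 and Msh6 did not pass either.

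**Figure D2:**
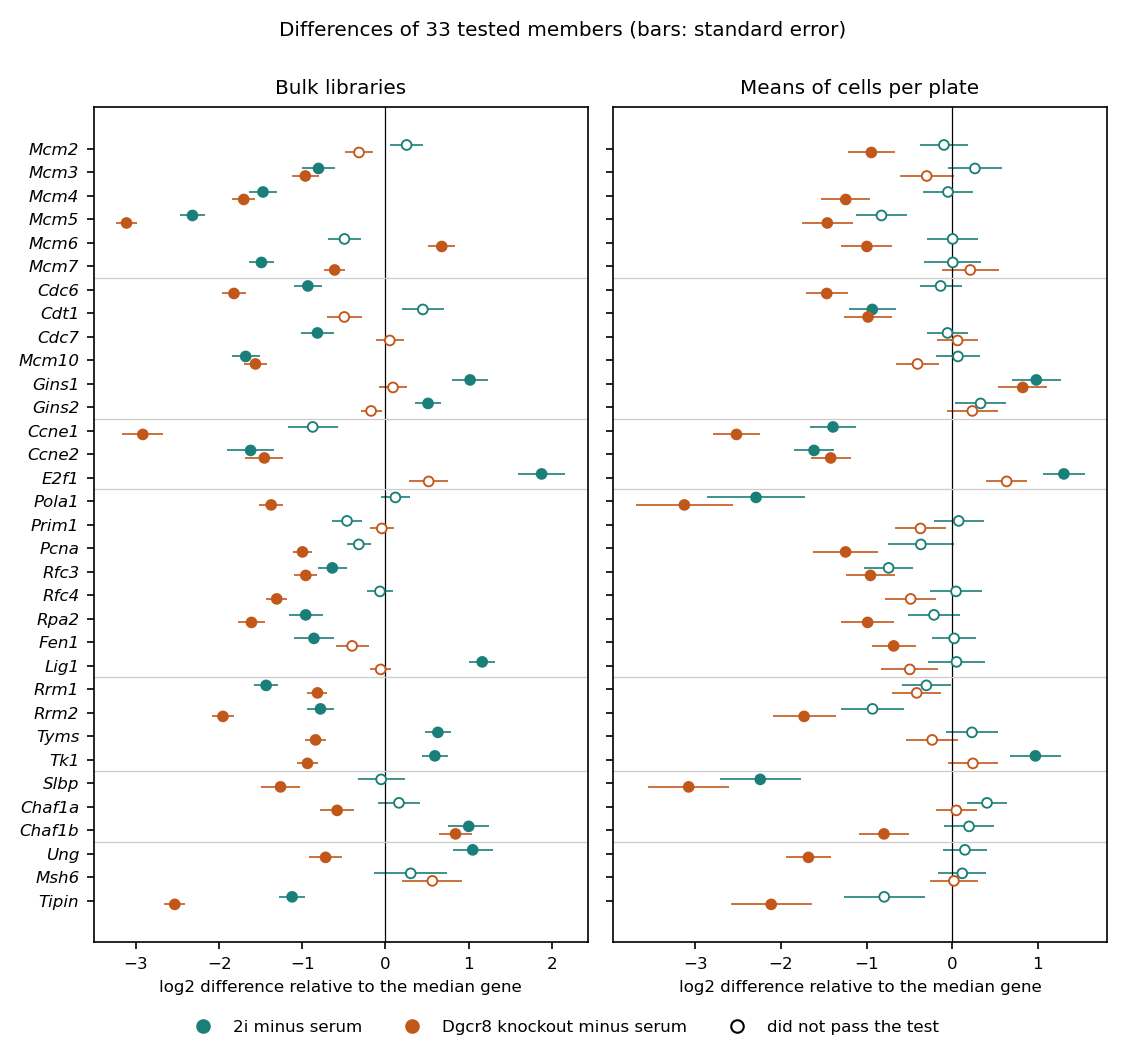
Log2 difference from serum of each tested member relative to the median gene (x axis) in bulk libraries and in plate means of cells, with 2i in teal, the Dgcr8 knockout in orange, standard errors as bars and open circles for members that did not pass. Mcm5 lies at -3.11 in knockout bulk and at -1.46 in knockout cells, and Pola1 and Slbp lie much lower in cells than in bulk.

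Set directly against the knockout in bulk, 2i was higher for 19 members (29.7% of all genes were called higher), lower for 4 (19.9% of all genes were called lower) and not different by the test for 10. Uncentred, 6 were higher and 12 lower, where 11.9% of all genes were called higher and 49.1% lower. The 4 lower in 2i were Mcm6, Mcm7, Cdc7 and Rrm1. Ccne1 read 10.7 TPM in 2i beside 5.74 and 2.98 in the knockout (2.04, SE 0.30, adjusted p = 0.00158). Ung read 8.42 beside 3.94 and 4.15 (1.77, SE 0.24), Tk1 125 beside 76.3 and 81 (1.53, SE 0.16), and Tyms 105 beside 72.5 and 65.1 (1.47, SE 0.16). Pola1, the catalytic subunit of the primer polymerase, read 41.9 TPM beside 28.4 and 25.3 (1.49, SE 0.18), and Tipin read 207 beside 152 and 133 (1.41, SE 0.16). In each of these 6, the 2i library lay above both knockout libraries. The others called higher were Mcm5, Cdc6, Cdt1, Gins1, Gins2, E2f1, Pcna, Rfc4, Rpa2, Lig1, Rrm2, Slbp and Chaf1a. The same 5 libraries serve this comparison and the 2 against serum, so the 3 are not independent.

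In plate means of cells, fewer members moved in 2i. Of 33 tested, 3 rose (14.3% of all 12397 genes were called higher), 5 fell (20.7% of all genes were called lower) and 25 did not pass, and the members' median difference was 0.01. Uncentred, 8 were higher and 0 lower, where 39% of all genes were called higher and 1.82% lower. Under quantile normalisation no member passed in either direction with limma, where 6.33% of all genes were called higher and 3.54% lower. The rises were E2f1, Gins1 and Tk1, and the falls were Slbp, Pola1, Ccne2, Cdt1 and Ccne1. No call here held in every alternative. The 2 serum plates gave the only spread between plates, with 1 residual degree of freedom.

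E2f1 averaged 1.23 and 1.05 TPM over the cells of the serum plates and 12.1 under 2i (1.30, SE 0.24, adjusted p = 0.00189). Gins1 averaged 23.5 and 21.4 TPM in serum and 114 under 2i (0.98, SE 0.29, adjusted p = 0.0212). Ccne1 averaged 40.5 and 27.8 TPM in serum and 31.8 under 2i (-1.39, SE 0.27, adjusted p = 0.00244), so that its TPM did not leave the serum range. Ccne2 averaged 8.11 and 6.30 TPM in serum and 5.63 under 2i (-1.61, SE 0.23, adjusted p = 0.000448). Pola1 averaged 195 and 518 TPM on the 2 serum plates and 161 under 2i (-2.29, SE 0.57, adjusted p = 0.00975). Slbp, which binds the stem-loop at the end of histone messages, averaged 1305 and 1068 TPM in serum and 621 under 2i (-2.24, SE 0.47, adjusted p = 0.00411). Pola1 differed more between the 2 serum plates than serum plate 1 did from 2i.

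In 2i cells the helicase subunits gave no call. Mcm2 averaged 33.2 and 24.6 TPM on the serum plates and 68 under 2i, Mcm3 64.6 and 45.3 against 164, and Mcm4 46.1 and 33.1 against 95.5. Mcm5 averaged 77.4 and 62.6 against 98.1, Mcm6 56.7 and 44.4 against 127, and Mcm7 75.6 and 46.2 against 149. All 6 were higher in TPM in 2i, on a plate whose median gene was also higher, and relative to that gene their differences ran from -0.83 (Mcm5) to 0.27 (Mcm3).

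Knockout cells gave 1 rise (Gins1, 17.6% of all genes were called higher), 18 falls (28.2% of all genes were called lower) and 14 members that did not pass. The median difference of -0.80 lay beside -0.16 for all genes. Uncentred, 7 were higher and 1 lower, where 50% of all genes were called higher and 2.97% lower. Pola1 averaged 105 TPM in the knockout beside 195 and 518 in serum (-3.13, SE 0.57, adjusted p = 0.00126), and Slbp 407 beside 1305 and 1068 (-3.08, SE 0.47, adjusted p = 0.000443). Ccne1 averaged 16.6 TPM beside 40.5 and 27.8 (-2.52, SE 0.27, adjusted p = 4.1e-05), and its plate mean lay below both serum plates in TPM too. Tipin averaged 248 TPM beside 292 and 464 (-2.11, SE 0.47, adjusted p = 0.00423), and Rrm2 182 beside 209 and 206 (-1.73, SE 0.37, adjusted p = 0.00313), both also below serum in TPM. Ung averaged 6.83 TPM beside 9.87 and 5.78 (-1.68, SE 0.26, adjusted p = 0.00046), within the serum range. Of the helicase, Mcm4 averaged 48.4 TPM (-1.24), Mcm5 73.9 (-1.46), Mcm6 73.9 (-1.0) and Mcm2 43.9 (-0.94), which fell relative to the median gene, while Mcm3, at 130 TPM, and Mcm7, at 202, did not pass. The other falls were Cdc6, Cdt1, Ccne2, Pcna, Rfc3, Rpa2, Fen1 and Chaf1b. Only the rise of Gins1 (23.5 and 21.4 against 120 TPM, 0.82, SE 0.29, adjusted p = 0.0362) held in every alternative.

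Bulk calls were then followed into the cells. Over all genes tested in cells, 39.9% lay above both serum plates in 2i and 47.4% below, and 38.5% and 51.5% did so in the knockout. Of the 8 bulk rises in 2i, 6 lay above both serum plates in the 2i plate, beside 84.5% of all genes called higher in bulk. Of the 14 bulk falls, 8 lay below both plates (78.9% for all genes), 3 lay above both (Mcm3, Mcm10, Fen1) and 3 lay between them (Mcm4, Mcm7, Cdc7). Gins1, E2f1 and Tk1 rose and Ccne2 fell in both kinds of data. For the knockout, 18 of 21 bulk falls lay below both serum plates, beside 85.6% of all genes called lower, and Mcm7 and Tk1 lay above. The 2 bulk rises, Mcm6 and Chaf1b, were called lower in cells. The members called lower in both were Mcm4, Mcm5, Cdc6, Ccne1, Ccne2, Pola1, Pcna, Rfc3, Rpa2, Rrm2, Slbp, Ung and Tipin.

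Levels in cells were lower than in bulk for several of the most abundant members, relative to the median gene of each. In serum the difference of cells minus bulk was -3.76 for Mcm5, -3.07 for Mcm3, -3.04 for Mcm7, -2.97 for Rrm2 and -2.65 for Rrm1, all within the lowest 2% of 9928 genes. In 2i the same genes gave -2.35, -2.08, -1.62, -3.20 and -1.59, and in the knockout -2.09, -2.39, -2.20, -2.72 and -2.23. Slbp (2.93) and Pola1 (2.69) stood at the opposite end in serum, at percentiles 98.4 and 97.9 of all genes, and Cdt1 followed (1.81). These 3 gave 0.66, 0.20 and 0.35 under 2i and 1.13, 0.95 and 1.34 in the knockout. The members' median was -0.42 in serum, -0.54 under 2i and -0.42 in the knockout, beside -0.22, -0.27 and -0.12 for all genes. Cells and bulk were prepared by different library methods, so this is a description of 2 assays.

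**Figure D3:**
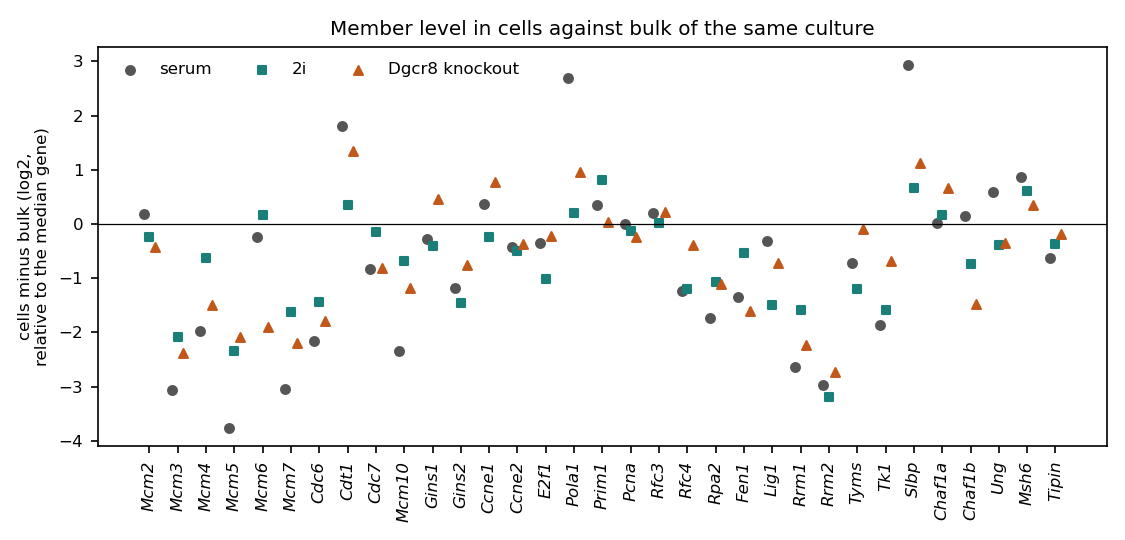
Log2 level in cells minus bulk of the same culture for each tested member, each relative to the median gene, with serum as circles, 2i as squares and Dgcr8 knockout as triangles. Mcm3, Mcm5, Mcm7, Rrm1 and Rrm2 lie low in all 3 cultures, and Slbp and Pola1 lie high in serum.

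Across mESC most members were found in nearly every cell. The median member was at 1 TPM or more in 100% of cells on both serum plates and in 2i and in 98.8% in the knockout. Over all genes with a mean of at least 1 TPM, the median share ran from 72.6% in the knockout to 88.3% under 2i. Variability was measured as the SD over cells of log2(TPM + 1), less the running median SD of genes of like mean level. This excess SD had a median over members of -0.01 on both serum plates, 0.00 under 2i and 0.13 in the knockout, with 0 for all genes by construction. On the serum and 2i plates, then, the members as a group varied about as much as genes of like level. In the knockout, 20 of 34 members were above 0, with 10 among the most variable 25% of genes and 7 among the least variable 25%. The members also differed among themselves.

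Averaged over the 4 mESC plates, Rrm2, whose RNA is known to peak in S phase, had the highest excess (0.33), with 0.39 and 0.31 on the serum plates, 0.15 under 2i and 0.46 in the knockout. It led on serum plate 2 alone. The clamp loader Rfc3 had 0.38, 0.04, 0.08 and 0.69, in the same order. Ccne1 had 0.27, 0.07, 0.38 and 0.36, and in the knockout 73.8% of cells had it at 1 TPM or more, beside 98.9% and 100% in serum. Slbp had 0.44, 0.10, 0.25 and 0.20, and Tk1 had 0.13, 0.15, 0.05 and 0.57. The highest single values were thus those of Slbp on serum plate 1, Ccne1 under 2i and Rfc3 in the knockout. The steadiest members were Msh6 (mean over the 4 plates -0.20), Rrm1 (-0.17), Lig1 (-0.15), Mcm4 (-0.13) and Cdt1 (-0.13). The 2 subunits of ribonucleotide reductase thus lay near opposite ends of this order. Mcm10 was under 0 on both serum plates and reached 0.41 in the knockout, and 57.1% of knockout cells had Cdc6 at 1 TPM or more, beside 91.1% and 93.5% of serum cells.

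**Figure D4:**
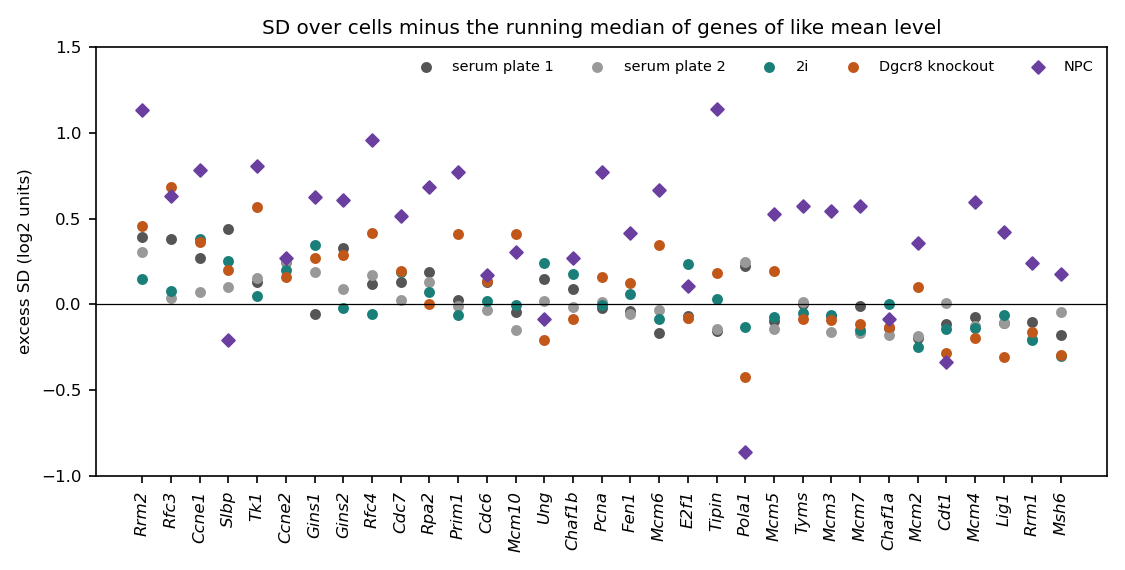
Excess SD over cells (log2 units) of each member on the 4 mESC plates (circles) and in NPC (diamonds), with members ordered by their mean over the mESC plates and 0 as the running median of genes of like level. NPC values lie above 0 for 28 of 34 members, the plotted exceptions being Slbp, Pola1, Ung, Chaf1a and Cdt1.

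Members varied together weakly across mESC, and the differences between plates given here were not tested. The mean Spearman correlation over pairs of members was 0.20 and 0.14 on the serum plates, 0.10 under 2i, 0.10 in the knockout and 0.29 in NPC. Over pairs of genes found in at least as many cells as the median member it was 0.09, 0.05, 0.01, 0.02 and 0.04. These are means over cells that share a plate and its depth. After the number of genes found per cell was regressed out of the ranks, the members' means were 0.18, 0.11, 0.08, 0.10 and 0.27, so that serum plate 2 and the knockout lay close together. The 15 pairs within the MCM ring had the closest link of any role on the 4 mESC plates, with 0.44, 0.33, 0.25 and 0.24. Nucleotide supply genes followed on 3 of these plates, with 0.26, 0.22, 0.22 and 0.19 in all. With the 23 genes of G2/M the members' mean correlation was 0.10 and 0.04 on the serum plates, -0.07 under 2i, -0.04 in the knockout and 0.22 in NPC. G2/M genes among themselves gave 0.26, 0.21, 0.24, 0.45 and 0.48.

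The closest pair over the 4 mESC plates was Cdc6 with Rrm2, at 0.67 and 0.59 on the serum plates, 0.52 under 2i and 0.28 in the knockout. Rpa2 with Rrm2 (mean 0.44), Ccne2 with Rrm2 (0.43), Pcna with Rrm2 (0.42) and Mcm4 with Pcna (0.40) came next, so Rrm2 was in 4 of the 5 closest pairs. Of the 528 pairs, 275 were above 0 on all 4 plates. Against the mean of the other members, Pcna (0.57), Rrm2 (0.56) and Rpa2 (0.54) followed the set most closely, and Mcm5 (0.50) led the helicase. E2f1 (0.02) hardly followed it. Pola1 gave -0.18 and -0.42 on the serum plates, 0.13 under 2i, 0.14 in the knockout and 0.46 in NPC, and Slbp gave -0.27, -0.05, 0.43, 0.28 and 0.55. Pola1 thus ran opposite to the set on both serum plates, and Slbp on plate 1 with a value near 0 on plate 2. They were also the members that stood farthest above bulk in serum cells.

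Among 8820 gene names outside the list, the 10 whose level followed the members' mean most closely over the 4 mESC plates were Orc6 (0.54), Uhrf1 (0.48), Cdc45 (0.44), Nasp (0.44), Usp37 (0.42), Rbmxrt (0.41), Exo1 (0.40), Tfdp1 (0.39), Bclaf1 (0.39, also listed under another name with the same values and given once) and Nolc1 (0.38). Orc6 is a subunit of the origin recognition complex, Uhrf1 guides maintenance DNA methylation, Cdc45 is part of the active helicase, and Tfdp1 is the dimer partner of E2F. The first 100 such names held 10 of the 37 other replication genes, 3 of the 15 G1/S regulators present and 0 of the 23 G2/M genes.

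In NPC the members were found less evenly than on the mESC plates, and so were genes in general. The median member was at 1 TPM or more in 59.3% of the 54 cells, beside 50% for the median gene. The mean member level per cell had a median of 2.35 and ran from 1.16 to 6.64 on the log2(TPM + 1) scale, with an SD of 1.52. On mESC plates the medians were 5.06, 4.95, 6.02 and 5.32, with SDs between 0.28 and 0.46. The median excess SD was 0.52, and 25 of 34 members stood among the most variable 25% of genes. Counting only cells with the gene it was 0.20. The NPC table is a separate deposit with a median of 7353 genes found per cell, beside 7780 and 7648 on the serum plates, so its levels are set beside the mESC without a test.

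**Figure D5:**
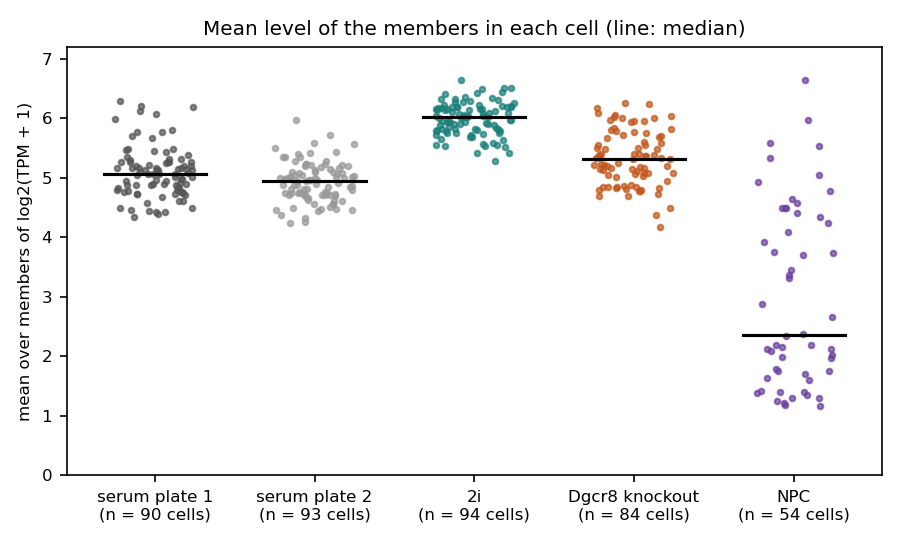
Mean over members of log2(TPM + 1) in each cell, 1 point per cell, by plate, with the median as a line. NPC cells run from 1.16 to 6.64 with a median of 2.35, while no mESC cell lies below 4.18.

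In NPC, Rrm2 had a mean of 222 TPM, a median of 23.9 and a maximum of 1690, and its excess SD of 1.13 was above that of 99.6% of genes. Pcna was at 1 TPM or more in 94.4% of cells, with a median of 115 TPM. Slbp was at that level in 100% of cells and Pola1 in 98.1%, both with negative excess SD. Ung was in 7.41% of cells, E2f2 in 16.7% and Cdc6 in 22.2%. The mean exceeded the median for all 34 members, as for Ccne1, with a mean of 48.1 and a median of 0.332 TPM. Nucleotide supply genes had the highest mean correlation of any role in NPC (0.56), followed by the polymerase, clamp and Okazaki genes (0.36) and the MCM ring (0.34).

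ChIP-seq counts in 1000-base windows, 1 per gene, showed the marks of active genes at the members. All 34 lay over the median window for H3K4me3 and for H3K27ac (marks of active promoters, the second also of enhancers) in all 3 cultures, with median percentiles between 84.5 and 91.9. For RNA polymerase II all 34 did so in serum and in the knockout and 33 under 2i. For the Polycomb mark H3K27me3 the members' median percentile was 24.5 in serum, 32.2 under 2i and 28.1 in the knockout, and for H3K9me3, a mark of heterochromatin, it was 32.8, 39.6 and 41.9. H3K36me3, laid down over gene bodies, gave 40.7, 59.5 and 44.2. The input gave 74.8, 69.6 and 69.8, so members also had more input reads than most windows. Cdt1 had the highest count of all members for H3K4me3 in each culture (5818 in serum), and also for H3K9me3 and in the input, where it had 46, 87 and 49 counts in serum, 2i and the knockout.

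Ratios between cultures rest on 1 library each, were taken relative to the median window with at least 50 counts, and carry intervals for counting error only. For H3K4me3, H3K27ac, polymerase and H3K36me3, a ratio past 1 on the log2 scale was reached by Cdc6, Ccne2 and Msh6 alone. The shares of all windows past it, higher and then lower, were 2.5% and 8.07% for H3K4me3 under 2i, 6.8% and 0.841% in the knockout, 4.44% and 8.26% for H3K27ac in 2i, and 2.6% and 6.09% in the knockout. They were 5.45% and 5.83% for polymerase in 2i, 5.96% and 2.7% in the knockout, 5.1% and 6.32% for H3K36me3 under 2i, and 3.28% and 3.56% in the knockout. At most 3 members reached 50 counts for H3K27me3 or H3K9me3. Cdc6 had 214 H3K27ac counts in serum and 89 in the knockout (-1.14, 95% interval -1.52 to -0.78), in the window chr11:98768964-98769964 (mm9). Ccne2 had 198 polymerase counts in serum and 54 under 2i (-1.09, -1.56 to -0.66), in the window chr4:11118355-11119355 (mm9), and its H3K27ac ratio in 2i was -0.91. In both genes the bulk RNA was also lower in the same culture. In cells, Cdc6 averaged 9.55 TPM in the knockout, within the serum range of 10.8 and 7.47. For Cdc6 in 2i the 2 assays went apart, with a polymerase ratio of 0.92 and a bulk RNA difference of -0.93. Msh6 had 10 H3K36me3 counts in serum and 40 under 2i (1.74, 0.77 to 2.96). In the input, where no mark was selected, Ung (19 and 51 counts, 1.01 under 2i) and Tipin (34 and 18, -1.03 in the knockout) passed the same limit, as 3.36% of all windows did upward and 2.92% downward in 2i and 3.14% and 3.19% in the knockout, which shows how far such low counts can move without a mark.

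Of the 3 genes with large differences in bulk RNA whose promoters are shown above, E2f1 had 550 H3K4me3 counts in serum, 569 under 2i and 133 in the knockout (0.74 and -0.62 relative to the median window), and 277, 595 and 229 for H3K27ac (0.83 and -0.16). Ccne1 had 2349, 1191 and 496 H3K4me3 counts (-0.29 and -0.81) and 637, 448 and 368 H3K27ac counts (-0.78 and -0.67). Mcm5, whose RNA fell most of all members in bulk in both cultures, had 3145, 2148 and 1049 H3K4me3 counts (0.14 and -0.16), 918, 1313 and 918 H3K27ac counts (0.25 and 0.12) and 251, 154 and 191 polymerase counts (0.07 and -0.47). None of its active marks passed the limit in either culture. Other ratios among the largest of their mark were Chaf1a for H3K4me3 in the knockout (-0.51), Cdc6 (0.92) and Mcm10 (-0.91) for polymerase in 2i, Chaf1a for polymerase in the knockout (-0.84), Ung for H3K36me3 in the knockout (0.95) and Lig1 for H3K27me3 in the knockout (0.75). For H3K9me3 Cdt1 alone reached 50 counts, with -0.14 under 2i and 0.02 in the knockout.

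The wider pathway was counted from lists written from general knowledge. Of 37 other replication genes, 5 rose and 7 fell in 2i bulk, 6 rose and 16 fell in knockout bulk, 4 rose and 7 fell in 2i cells, and 2 rose and 16 fell in knockout cells. The shares of all genes called higher and lower were 13.8% and 18.7% in 2i bulk, 21.8% and 36.5% in knockout bulk, 14.3% and 20.7% in 2i cells, and 17.6% and 28.2% in knockout cells, so the list lay near the background in 2i bulk (13.5% and 18.9%). Uncentred, the list gave 7 higher and 5 lower in 2i bulk, 22 and 7 in knockout bulk, 9 and 0 in 2i cells, and 13 and 1 in knockout cells. Of all genes, 20.4% were called higher and 11.8% lower uncentred in 2i bulk, and 62.5% and 11.7% in knockout bulk. In cells the uncentred shares of all genes were 39% and 1.82% in 2i, and 50% and 2.97% in the knockout. Pola2, which tethers polymerase alpha to the helicase, read 92 and 98.3 TPM in serum, 13.3 under 2i, and 15.1 and 12.8 in the knockout (-3.00, SE 0.20, and -3.81, SE 0.17). Its plate means were 410 and 787 TPM in serum, 63.2 under 2i and 44.7 in the knockout (-4.46, SE 0.47, and -5.18, SE 0.47). Like Pola1, Pola2 stood far higher in serum cells than in serum bulk. Topbp1, which helps to start the fork, fell in knockout bulk (-2.46, SE 0.29) and in knockout cells (-2.91, SE 0.63). With 2i set against the knockout in bulk, 17 of these genes were higher and 6 lower (6 and 17 uncentred). Of all genes 29.7% were called higher there and 19.9% lower (11.9% and 49.1% uncentred). Topbp1 (2.77) and Pole3 (2.25), a histone-fold subunit of polymerase epsilon, were among the higher.

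Of 18 tested G1/S regulators in bulk, 5 rose and 3 fell in 2i and 6 rose and 5 fell in the knockout. Of 23 tested in cells, 3 rose and 5 fell in 2i and 6 rose and 8 fell in the knockout. Uncentred, 6 were higher and 3 lower in 2i bulk, 12 and 3 in knockout bulk, 8 and 0 in 2i cells, and 9 and 0 in knockout cells. The uncentred shares of all genes are those given above for the other replication genes. Cdkn1a, which encodes the cyclin-dependent kinase inhibitor p21, read 1.32 and 1.38 TPM in serum, 10.5 under 2i, and 57.5 and 56.5 in the knockout (2.04, SE 0.21, and 3.50, SE 0.18). Its plate means were 3.91 and 3.17 TPM in serum, 61.1 under 2i and 113 in the knockout (2.46, SE 0.25, and 3.11, SE 0.25). Tfdp1, the E2F partner, fell in 2i bulk (-2.45, SE 0.19), and the inhibitor Cdkn2d rose there (2.09, SE 0.28) and in 2i cells (2.02, SE 0.24). Cdkn1c, another inhibitor, fell in 2i cells (-3.05, SE 0.40) and in knockout cells (-2.59, SE 0.40), from at most 5.03 TPM. In 2i against the knockout in bulk, 6 were higher and 3 lower (1 and 9 uncentred), with the cyclin Ccnd3 at 2.42. All genes gave 29.7% and 19.9% there (11.9% and 49.1% uncentred).

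Of 23 G2/M genes, 2 rose and 6 fell in 2i bulk, 7 rose and 7 fell in knockout bulk, 3 rose and 0 fell in 2i cells, and 4 rose and 5 fell in knockout cells. In knockout bulk that was 30.4% of the list in each direction, beside 21.8% and 36.5% of all genes, and in 2i bulk 8.70% and 26.1%, beside 13.8% and 18.7%. Uncentred, 6 were higher and 3 lower in 2i bulk, 18 and 2 in knockout bulk, 13 and 0 in 2i cells, and 14 and 0 in knockout cells. The uncentred shares of all genes are again those given for the other replication genes. Nusap1, a spindle protein, rose from 11.3 and 8.48 TPM to 128 and 135 in knockout bulk (2.50, SE 0.14). In 2i against the knockout, 7 of the list were higher and 5 lower (1 and 15 uncentred), with Nusap1 at -2.02. All genes gave 29.7% and 19.9% there (11.9% and 49.1% uncentred). In knockout bulk the list's median difference was 0.00, beside -0.84 for the members and -0.20 for all genes.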

How the data were processed

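Bulk and single-cell RNA-seq and ChIP-seq of mouse cells were used as deposited, and the genes and lists were chosen with earlier results of these data known. The deposited RNA tables hold ln(TPM + 1), a natural log scale, per the values and the labels, and were turned back into TPM. The deposited ChIP table holds read counts per 1000-base gene window, and no source used here states where in the gene a window lies. Bowtie, RSEM and mm9 are named in the submitters' processing notes. Names turned into dates by a spreadsheet were left out (51 in the mESC table, 25 each in the NPC and ChIP tables).

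Genes with a mean of at least 1 TPM were fitted with limma 3.58.1 in R 4.3.3 (trend, log2(TPM + 1), pseudocount 1, each library or plate mean centred on its median tested gene), with all groups in 1 fit and Benjamini-Hochberg adjustment over all genes at 0.05. A fold change on this scale understates the change of low genes. Bulk had 2 residual degrees of freedom and plate means 1. Cells were not treated as replicates, none was filtered, and no doublet caller was run, the capture chambers having been optically inspected per the labels. Changes were simulated in the knockout samples alone. Against serum, 60% of genes changed 2-fold and 93% of those changed 4-fold were recovered in bulk, and 25% and 81% over plates. Recovery in the 2i comparisons was not simulated. Variability, co-variation, bulk against cells, NPC and ChIP were described without a test. ChIP ratios compared each window's share of its library's counts, with 0.5 added and at least 50 counts over both libraries. Their intervals were exact binomial intervals on the split of counts between both libraries. ChIP totals ran from 332811 to 15293599 counts per library.

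Named in each RNA comparison were all called members, with values for the 6 of largest difference and for Mcm2 to Mcm7, for cells the 5 most and 5 least variable members, the 5 closest pairs and the 10 most similar other genes, for ChIP the called members with the 4 largest ratios per mark, and the 4 largest called genes of the pathway lists. Alternatives were other centring, pseudocounts, filters, no trend, a replicate block, leaving out libraries, other correlations, detection limits and count minimums.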

Additional observations from a re-analysis of the deposited data

Results flagged for a closer look

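For 7 members the bulk difference that passed the test and the plate means of cells went in opposite directions relative to the median gene, each without overlap with serum, and the difference between bulk and cells itself was not tested. Of all genes, 39.9% lay above both serum plates in 2i cells and 47.4% below, and 38.5% and 51.5% in knockout cells. Among all genes called lower in bulk, 10.5% lay above both plates in 2i and 8.09% in the knockout. Of those called higher in knockout bulk, 10.9% lay below both. In 2i these members were Mcm3 (-0.80 in bulk and 0.27 in cells), Mcm10 (-1.68 and 0.068) and Fen1 (-0.86 and 0.023). Their SEs in cells were 0.31, 0.26 and 0.26, each larger than the cell value. In the Dgcr8 knockout the members were Mcm6 (0.68 and -1.0), Chaf1b (0.84 and -0.80), Mcm7 (-0.61 and 0.21, SE 0.33 in cells) and Tk1 (-0.94 and 0.24, SE 0.30 in cells). Of the cell values only those of Mcm6 and Chaf1b passed limma's test, and uncentred both were positive in cells (0.55 and 0.75) as they were in bulk. Uncentred, Mcm7 (0.51 in bulk and 1.76 in cells) and Tk1 (0.18 and 1.79) also had the same sign in both, so that none of the 4 knockout members was opposite on that scale. The 3 members in 2i were still opposite in sign uncentred, Mcm3 at -0.55 and 1.58, Mcm10 at -1.43 and 1.38 and Fen1 at -0.61 and 1.34. On that scale, however, the median gene itself was 1.24 higher in 2i cells. Uncentred, none of the 3 passed limma's test in cells (adjusted p = 0.0608, 0.0554 and 0.0585), and Fen1 did not pass in bulk (adjusted p = 0.0844).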

How the results depend on the processing

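Values as deposited ended the most calls in knockout bulk (12) and in 2i against the knockout (13), and with quantile normalisation in knockout cells (17 each). In 2i bulk the fit without a trend ended most (5), and in 2i cells quantile normalisation (8 of 8). With values as deposited, knockout bulk gave 13 higher and 8 lower, 2i against the knockout 6 and 12, 2i cells 8 and 0, and knockout cells 7 and 1. The shares of all genes on that scale stand beside the main counts above. Quantile normalisation gave 6 and 13, 10 and 7, 0 and 0, and 2 and 1 in the same order. Of all genes it called 29% higher and 28.8% lower, 24.4% and 24.7%, 6.33% and 3.54%, and 13% and 7.9%, again in that order. Centring on genes with a mean of at least 20 TPM, added after seeing the data, gave 9 and 12 in knockout bulk, 11 and 7 in 2i against the knockout, and 4 and 9 in knockout cells. The shares of all genes were 47.3% higher and 18.3% lower, 17.7% and 37.5%, and 37.8% and 16.2%, in that order. Without a filter on level, knockout bulk had 8 higher (19.9% of all genes were), 2i against the knockout 8 lower (18.3% of all genes), and knockout cells 2 higher and 11 lower (17% and 50.5% of all genes). A mean of at least 5 TPM gave 2 higher and 10 lower in knockout cells. A pseudocount of 5 gave 10 lower there (38.8% of all genes), and the fit without a trend gave 5 higher in 2i bulk (13.5% of all genes). Calls held in each alternative that tested them for 15 of 22 members in 2i bulk, 9 of 23 in knockout bulk, 9 of 23 in 2i against the knockout, 0 of 8 in 2i cells and 1 of 19 in knockout cells. A mean of at least 5 TPM left out E2f1, Ung, Ccne2 and Chaf1a, and 12 of the 15, 9 of the 9 and 8 of the 9 in bulk were tested in every alternative.

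Directions of members called on either scale turned as follows, through the change of reference that each alternative makes. As deposited, knockout bulk gave Lig1 1.06, Pcna 0.12, Mcm3 0.16, Mcm2 0.80, Ung 0.40, Rfc3 0.16, Mcm7 0.51, Fen1 0.72, Prim1 1.08, Tk1 0.18, Cdt1 0.63, Chaf1a 0.54, Rrm1 0.30, Gins2 0.95 and Tyms 0.28. In 2i against the knockout it gave Pcna -0.19, Mcm4 -0.64, Rpa2 -0.22, Mcm3 -0.71, Chaf1b -0.71, Chaf1a -0.12, Gins2 -0.18 and Mcm5 -0.075. In 2i cells 12 members turned, of which only Cdt1 (0.38) was called on either scale, and in knockout cells 19 turned, 15 of them so called. Knockout cells gave Lig1 1.05, Pcna 0.30, Mcm4 0.30, Rpa2 0.56, Mcm2 0.60, Rfc3 0.59, Chaf1b 0.75, Ccne2 0.13, Fen1 0.86, Mcm6 0.55, Cdt1 0.56, Cdc6 0.080, Rfc4 1.06, Tyms 1.31 and Mcm5 0.086. Under quantile normalisation knockout bulk gave Lig1 0.77, Pcna 0.083, Mcm3 0.34, Mcm7 0.80, Rrm1 0.22 and Gins2 0.69, 2i against the knockout Pcna -0.25, Rpa2 -0.062, Mcm3 -0.92, Gins2 -0.11, Rrm2 -0.25 and Mcm5 -0.12, and knockout cells Pcna 0.081. Centred on genes of at least 20 TPM, knockout bulk gave Lig1 0.64, Mcm7 0.085, Prim1 0.65, Chaf1a 0.12 and Gins2 0.52. Without the filter it gave Lig1 0.39 and Prim1 0.41, and with a pseudocount of 5 Lig1 0.33.

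Leaving out 1 bulk library at a time gave 7 to 8 higher and 12 to 15 lower in 2i bulk, 1 to 3 higher and 18 to 22 lower in the knockout, and 16 to 18 higher and 3 to 4 lower in 2i against the knockout. With a replicate block, bulk gave 7 higher and 14 lower in 2i, 2 and 20 in the knockout, and 18 and 4 in 2i against the knockout, but the numbers share only a label, and the deviations of same-numbered libraries correlated at -0.03. The shares of all genes with that block were 12.7% and 16.9%, 20.7% and 35%, and 28.3% and 18.6%, in that order. Leaving out a serum plate left no residual degree of freedom, so no count was made.

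Counting only cells with the gene, the median excess SD was -0.019, -0.00018, -0.044, 0.043 and 0.20 (serum plates, 2i, knockout, NPC). At a limit of 10 TPM the median member was in 97.2% and 96.8% of serum cells, 95.2% of knockout cells and 41.7% of NPC. With a pseudocount of 5 the 2i median of cells minus bulk was -0.17. For ChIP, a minimum of 20 counts gave 2 lower for polymerase in 2i, 3 higher and 1 lower for H3K36me3 in 2i, 3 and 2 in the knockout, 3 and 1 higher for H3K27me3, and 4 and 3 higher for H3K9me3 (2i and knockout). A minimum of 100 left 0 higher for H3K36me3 in 2i. Thin windows limit H3K36me3, H3K27me3 and H3K9me3, where at most 6 members reached 50 counts.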
